A study of Mus musculus with 2 samples.

Results

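The replication-dependent histone genes of the mouse lie in dense clusters on chromosomes 13 and 3. Chromatin loops of 35 to 1580 kb were called in and around the chromosome 13 cluster, and none in the chromosome 3 interval. The genes were chosen by symbol and position: protein-coding records of the RefSeq gene table whose symbol starts with Hist1, Hist2, H1f, H2ac, H2bc, H3c or H4c, on chromosome 13 between 21000000 and 24000000 or on chromosome 3 in the 0.5 Mb from 96000000. They numbered 63 of 21631 protein-coding genes, 53 on chromosome 13 and 10 on chromosome 3. The loops were chosen by the measured positions of their anchors, as those with at least 1 anchor in either interval, and numbered 16 of 4982. That these loops lie there is therefore no finding.

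The assay was Micro-C, which fragments fixed chromatin with micrococcal nuclease and joins DNA ends that lie close together. A loop is a pair of distant anchors that contact each other more than their surroundings. The cells were V6.5, 1 male mouse embryonic stem cell line, grown on gelatin. Both samples formed 1 group, siControl, which received 50 nM of siGLO, a transfection control, with DharmaFECT1, 48 hours before collection. No second group was analysed here. A single loop list represents the group, with no value for either sample, so the spread between the 2 samples could not be measured, no difference was tested, and the depth is unknown. Every count below describes that list. All coordinates are in mm10.

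Histones are the proteins around which DNA is wrapped: H2A, H2B, H3 and H4 form the nucleosome core and H1 binds the linker DNA. The replication-dependent genes are switched on in S phase, lack introns as a rule, and end in a stem-loop in place of a poly(A) tail. Their clusters gather in the nucleus in the histone locus body, where NPAT and FLASH (encoded by Casp8ap2) drive their transcription and processing. Loops do not show when a gene is active, so replication dependence itself was not measured. By common knowledge H1f6, H2ac1 and H2bc1 are testis forms. The class was read from the symbol, which gave 6 H1, 17 H2A, 16 H2B, 12 H3 and 12 H4 genes. H4bc24, whose symbol is outside the rule, lay 12.5 kb from an anchor.

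Histone genes less than 100 kb apart were taken as 1 subcluster, which gave 4 on chromosome 13 and 1 on chromosome 3. Subcluster 1 ran from H2bc13 to H2ac24 (21715711 to 21833475, 17 genes), subcluster 2 from H2ac12 to H2bc11 (22035122 to 22043658, 5 genes), subcluster 3 from H4c8 to H1f1 (23531044 to 23764412, 29 genes) and subcluster 4 was the pair of H2bc1 and H2ac1 (23933725 to 23934913). Subcluster 5, on chromosome 3, ran from H2ac21 to H2bc18 (96219885 to 96270192, 10 genes). The widest gap between neighbours on chromosome 13, 1487 kb between subclusters 2 and 3, holds the vomeronasal receptor genes of the Vmn1r family, which serve pheromone sensing.

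**Figure D1:**
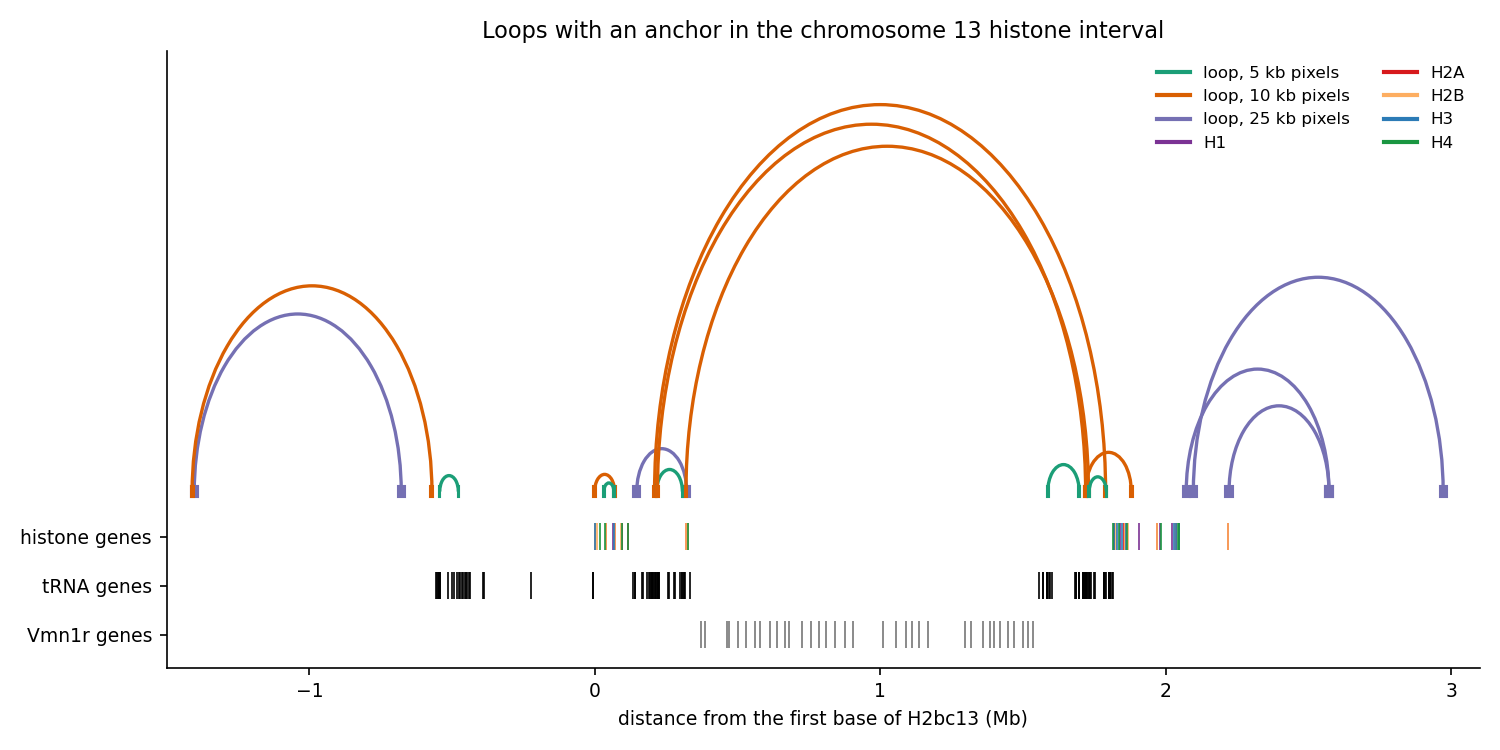
Arcs join the midpoints of the 2 anchors of each of the 16 loops, coloured by pixel size, with boxes for the anchors; ticks mark the starts of histone, tRNA and Vmn1r genes, and the horizontal axis gives the distance from the first base of H2bc13 in Mb. The 3 longest arcs, of 1410 to 1580 kb, pass over all 36 Vmn1r genes and end near histone and tRNA genes on either side.

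Histone genes had an end inside an anchor in 14 of 63 cases (22.2%, exact 95% interval 12.7 to 34.5%), against 9.04% of all protein-coding genes. All 14 were among the 53 genes of chromosome 13 (26.4%, 15.3 to 40.3%). These 14 genes shared 4 merged anchors, so they are not independent of each other and the intervals, which cover counting error over genes, are too narrow. In subcluster 1 it was 7 of 17 genes (H2bc13, H2ac13, H3c10, H1f5, H3c11, H2ac22 and H2bc22). In subcluster 2 it was all 5 (H2ac12, H2bc12, H4c9, H2ac11 and H2bc11), which fitted within 1 anchor of 25 kb. In subcluster 4 it was both genes, likewise within 1 anchor of 25 kb. Subcluster 3, the largest, had 0 of 29, which allows a share of up to 10.3%. Its genes are neighbours and not independent either, so this limit is too low. Only the long H2bc6 record of that subcluster overlapped an anchor (23590001 to 23600000) without an end in it. Counting any overlap thus gave 15 of 63 genes (23.8%), against 17.7% of all protein-coding genes.

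Near misses show how much the count turns on anchor edges. H4c12, an H4 gene of subcluster 1 on the minus strand, lay 145 bases beyond the anchor at 21745001 to 21750000, its 3′ end nearest. H2bc14 lay 2.04 kb, H2ac15 3.38 kb and H2bc15 4.08 kb from an anchor. Just inside were H1f5, whose record ran from 21779832 to 21780625 across the edge of its anchor at 21780001, and H2bc22, which began at 21787483 and reached beyond the anchor end at 21790000. When anchors were narrowed to their central 5 kb, 8 histone genes had an end inside, against 5.04% of all protein-coding genes.

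The highest peak score of the histone loops belonged to a loop within subcluster 1. It joined an anchor with H2bc13, H2ac13 and H3c10 (21710001 to 21720000) to one with H1f5, H3c11, H2ac22 and H2bc22 (21780001 to 21790000). Its peak score, a unitless score of the authors' caller, was 6.08, at percentile 93.4 of loops of the same pixel size (10 kb), and its span was 70 kb. This was the only 1 of the 16 loops with histone gene ends at both anchors, and it brought together genes of 4 classes, with H4 absent from either end. A second loop of the same subcluster lay inside it and spanned 35 kb, from 21745001 to 21750000, next to H4c12, to 21780001 to 21785000, with H1f5 and H3c11. Its peak score was 5.20 (percentile 59.6 of 5 kb pixels). These spans were the shortest of the whole list at their pixel sizes, shared with 17 loops in all at 70 kb and 3 in all at 35 kb. Nothing shorter could thus be compared.

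The letters upstream of these genes are shown because they are the start regions that the loop of highest score brings together, with H4c12, next to an anchor of the shorter loop inside it, H4c9 and the H2ac12 and H2bc12 pair of subcluster 2 and, for contrast, H2bc18 of the chromosome 3 cluster without loops. They come from RefSeq promoter windows of GRCm38.p6, the assembly of mm10, in which 58 of the 63 genes have an entry. H3c7, H2bc4, H3c1, H2bc21 and H4c14 have none. Each is read 5′ to 3′: single genes on their own strand, 150 bases up to the base before the start site, and pairs on the plus strand from start site to start site. Capitals mark any match, on either strand, to TATAAA, the box that places the start site, to CCAAT, a common promoter box, to TTTGCAT, which is part of the octamer element, to GGTCC, which is part of an H4 promoter element, or to AAACACA, which is part of the H1 box. At H3c11 a reverse GGTCC and a CCAAT overlap by 2 bases. The stretches are H2bc13 and H2ac13 (chr13:21716184-21716411), H3c10 (chr13:21717478-21717627, plus), H4c12 (chr13:21750554-21750703, minus), H1f5 (chr13:21780626-21780775, minus), H3c11 (chr13:21783398-21783547, minus), H2ac22 and H2bc22 (chr13:21787249-21787487), H2ac12 and H2bc12 (chr13:22035644-22035820), H4c9 (chr13:22041363-22041512, minus) and H2bc18 (chr3:96269550-96269699, plus).
H2bc13 and H2ac13: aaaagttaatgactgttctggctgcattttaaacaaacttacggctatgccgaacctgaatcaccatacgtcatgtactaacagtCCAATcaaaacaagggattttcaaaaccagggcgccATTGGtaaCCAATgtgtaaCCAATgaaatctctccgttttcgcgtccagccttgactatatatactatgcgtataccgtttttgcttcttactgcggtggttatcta
H3c10: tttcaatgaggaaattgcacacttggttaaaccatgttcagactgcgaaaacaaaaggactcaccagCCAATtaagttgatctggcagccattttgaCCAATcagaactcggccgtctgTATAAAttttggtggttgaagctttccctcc
H4c12: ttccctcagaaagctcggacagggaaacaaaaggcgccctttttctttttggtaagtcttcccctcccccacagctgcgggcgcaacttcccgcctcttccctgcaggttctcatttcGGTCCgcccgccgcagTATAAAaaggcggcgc
H1f5: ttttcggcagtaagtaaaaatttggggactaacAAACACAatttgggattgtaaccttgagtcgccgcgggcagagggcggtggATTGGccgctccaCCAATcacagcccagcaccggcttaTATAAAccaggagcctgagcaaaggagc
H3c11: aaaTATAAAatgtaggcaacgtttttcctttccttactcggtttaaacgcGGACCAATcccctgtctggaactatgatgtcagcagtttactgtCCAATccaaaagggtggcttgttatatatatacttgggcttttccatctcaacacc
H2ac22 and H2bc22: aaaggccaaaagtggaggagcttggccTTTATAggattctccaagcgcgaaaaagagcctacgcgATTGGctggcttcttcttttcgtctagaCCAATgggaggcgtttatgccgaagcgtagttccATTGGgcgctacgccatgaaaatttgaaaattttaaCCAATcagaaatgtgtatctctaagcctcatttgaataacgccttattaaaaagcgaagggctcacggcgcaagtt
H2ac12 and H2bc12: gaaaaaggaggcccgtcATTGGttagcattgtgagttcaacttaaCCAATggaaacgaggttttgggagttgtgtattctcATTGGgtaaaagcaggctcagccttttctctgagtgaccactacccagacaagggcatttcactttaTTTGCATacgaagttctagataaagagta
H4c9: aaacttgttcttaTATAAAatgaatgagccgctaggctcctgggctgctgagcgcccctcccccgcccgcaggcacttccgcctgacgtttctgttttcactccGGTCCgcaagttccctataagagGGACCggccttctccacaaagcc
H2bc18: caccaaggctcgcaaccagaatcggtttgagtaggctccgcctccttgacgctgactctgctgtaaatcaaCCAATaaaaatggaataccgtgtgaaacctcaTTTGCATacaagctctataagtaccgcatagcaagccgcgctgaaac

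The H2A and H2B genes were often placed head to head, as the pairs above show. Among genes with a promoter entry, 9 such pairs (18 genes) had start sites facing away from each other. The distance was 163 to 280 bases (median 179), so that each pair shares 1 upstream stretch. H2bc4 and H2bc21 have no entry, so pairs with their neighbours H2ac6 and, on chromosome 3, H2ac20 could not be read. None of these genes had an end at an anchor. Of the 9 pairs, 5 had both genes at an anchor and 4 had neither: a loop anchor of 5 kb or more cannot tell the members of a pair apart. H3c10 and H1f5 each carried a TATAAA close to the start site, its first base 31 and 28 bases upstream. At H3c11 and H4c9 the TATAAA lay farther off, at positions -147 and -137, and at H4c12 nearer, at -16. H4c9 had its forward GGTCC 46 bases upstream and no CCAAT in its window.

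**Figure D2:**
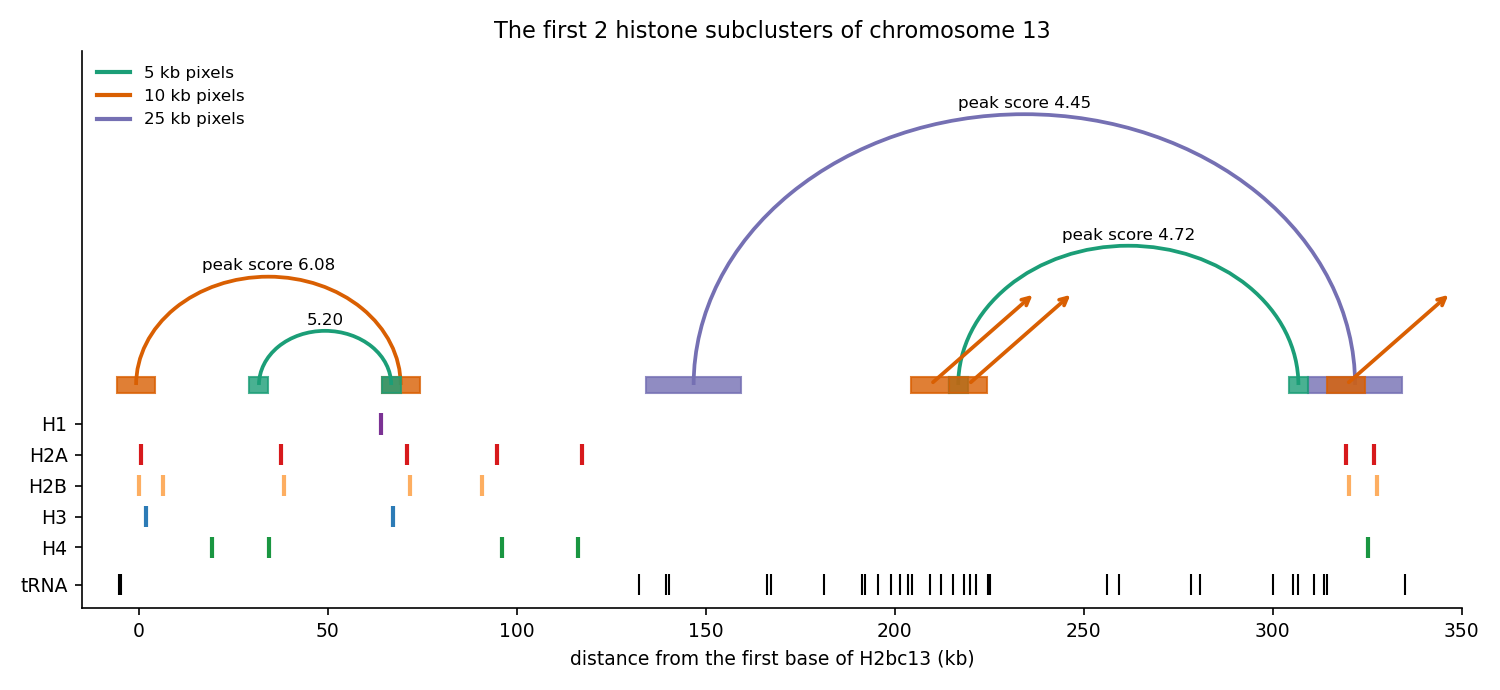
Subclusters 1 and 2 and their surroundings are drawn against the distance from the first base of H2bc13 in kb; boxes are anchors coloured by pixel size, arcs are loops with their deposited peak scores, and arrows stand for the 3 loops that leave toward higher coordinates. The arc scored 6.08 joins the left end of subcluster 1 to its middle, and the boxes right of it sit on tRNA genes.

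Between the right flank of subcluster 1 and subcluster 2 there were 2 loops. A loop of 25 kb pixels ran from 21850001 to 21875000, 16.5 kb past H2ac24 at the end of subcluster 1, to 22025001 to 22050000, the anchor that holds all 5 genes of subcluster 2. It spanned 175 kb, again the shortest span at its pixel size (10 loops in all), with a peak score of 4.45 (percentile 70.4). A loop of 5 kb pixels within that stretch, from 21930001 to 21935000 to 22020001 to 22025000, stopped 10.1 kb short of H2ac12. Its span was 90 kb and its peak score 4.72 (percentile 44.7). No loop had anchors on histone genes, or between them, of 2 different subclusters, a count of 0 of 16. With anchors allowed to lie within 25 kb of a subcluster it was 1, and within 100 kb it was 5, a choice made after the values were seen.

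Across the Vmn1r genes, 3 long loops connected the surroundings of subclusters 1 and 2 with those of subcluster 3. The loop of 1410 kb began at the anchor with H2ac12 and H2bc12 (22030001 to 22040000) and ended at 23440001 to 23450000, 81.0 kb before H4c8. Its peak score was 3.85 (percentile 43.3 of 10 kb pixels). The loop of 1500 kb ran from 21930001 to 21940000 to 23430001 to 23440000, with a peak score of 3.62 (percentile 31.9). The loop of 1580 kb ran from 21920001 to 21930000 to 23500001 to 23510000, which is 21.0 kb before H4c8, with a peak score of 3.69 (percentile 35.1). Their spans stood at percentiles 98.2, 98.6 and 99.0 of 10 kb loops, and the deposited values of their peak pixels, a contact signal whose normalization is unknown, at percentiles 78.7, 97.3 and 94.2. These loops were thus long and of high pixel value, with middling scores. Between the anchors on either side, 22025001 to 22050000 and 23300001 to 23305000, there was no anchor over 1250 kb, and 0 of 36 Vmn1r genes had an end at one. Of the 8720 gaps between neighbouring anchors of the list, whose median was 135 kb, 3.66% were at least that long.

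On its left side, subcluster 3 had 3 shorter loops. The farthest joined 23300001 to 23305000 to 23410001 to 23415000, 116 kb before H4c8, over 110 kb (peak score 5.31, percentile 63.2). The next joined 23430001 to 23440000, an anchor also used by the loop of 1500 kb, to 23590001 to 23600000 inside the H2bc6 record, over 160 kb (peak score 3.45, percentile 22.4). It spanned 14 of the 29 genes of the subcluster, from H4c8 to H4c4. The last joined 23445001 to 23450000 to 23505001 to 23510000 over 60 kb (3.88, percentile 15.3) and stopped before the subcluster. From H2ac6 to H4c3 the genes were farthest from any anchor on chromosome 13, at 76.5 to 83.5 kb, with H2ac6 at the maximum. Counting all loops, 32 of 63 histone genes (50.8%) lay within at least 1 loop, from outer edge to outer edge, against 35.5% of all protein-coding genes. Between the inner edges of the anchors it was 26. Neighbouring genes lie within the same loops and are not independent. By outer edges, the genes of subcluster 2 lay within 4 loops each and H2bc1 and H2ac1 within 3, counts that include loops anchored on them. No gene from H2bc6 to H1f1, in the right part of subcluster 3, lay within any.

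At the right end of the interval, H2bc1 and H2ac1 lay within 3 loops. These 3 loops of 25 kb pixels started past subcluster 3 and all ran toward higher coordinates. One began 10.6 kb past H1f1 at an anchor with an end of Trim38 (23775001 to 23800000) and reached an end of Carmil1, a regulator of actin capping, at 24275001 to 24300000, over 500 kb (peak score 5.03, percentile 83.0). The next began at Slc17a2, a phosphate transporter gene (23800001 to 23825000), and ended inside Ripor2 after 875 kb (3.54, percentile 36.1). The third joined the testis pair H2bc1 and H2ac1 (23925001 to 23950000) to the same Carmil1 anchor over 350 kb (3.75, percentile 44.0). Among the 16 loops, Carmil1 was the only protein-coding gene other than histone genes with an end opposite a histone gene end.

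**Figure D3:**
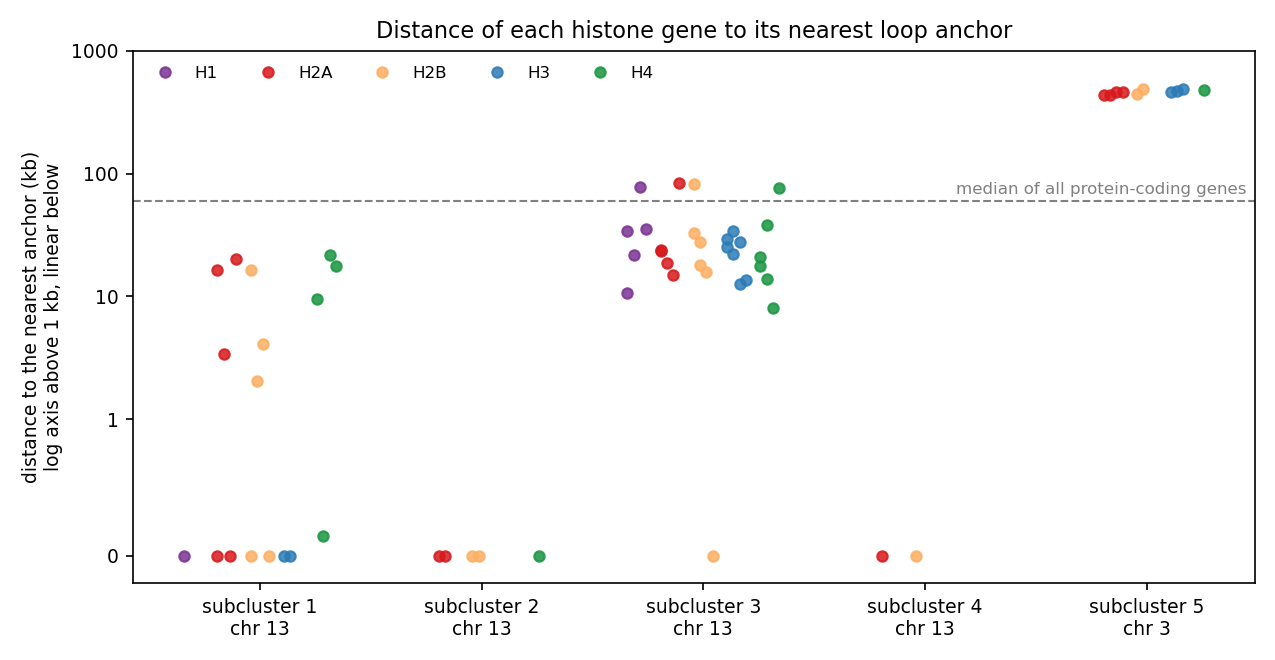
Each point is 1 of the 63 histone genes, coloured by class, at its distance to the nearest merged anchor in kb (log axis above 1 kb, linear below), by subcluster; the dashed line is the median of all protein-coding genes, 59.9 kb. The 10 genes of chromosome 3 lie between 439.9 and 489.7 kb, above every gene of chromosome 13. H2bc6 is drawn at 0 because its record overlaps an anchor.

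The chromosome 3 cluster had no loop at all. None of its 10 genes had an end at an anchor (0 of 10, which allows a share of up to 30%, exact upper limit 30.8%). As neighbours in 1 anchor-free stretch these genes are not independent, so both limits are too low. None was spanned by a loop and no anchor lay in the 0.5 Mb interval. The nearest anchors were at 95770001 to 95780000, 439.9 kb before H2ac21, and at 96930001 to 96940000, 659.8 kb after H2bc18, so the anchor-free stretch was 1150 kb. H2ac21 was the nearest gene and H2bc18, at 489.7 kb, the farthest. Of all protein-coding genes, 14.3% were at least as far from an anchor as H2ac21, and 20.9% of autosomal windows of 500 kb with at least 1 protein-coding gene held no anchor, so a window of that size without an anchor was not rare. The whole stretch was longer, and 4.13% of gaps between anchors were at least as long. On chromosome 13, by contrast, the farthest histone gene lay at 83.5 kb, and 49 of 53 lay within 50 kb of an anchor, against 46.6% of all protein-coding genes. The chromosome 13 interval held 21 merged anchors, or 7 per Mb, against 3.46 per Mb over the autosomes, and 27 of 810 autosomal windows of 3 Mb with a protein-coding gene had 16 loops or more. The sequences show H2bc18 with the same octamer letters as the H2ac12 and H2bc12 pair, so this motif was present on either chromosome. TTTGCAT was in 12 of 51 promoter windows on chromosome 13 and 2 of 8 on chromosome 3. For TATAAA it was 31 and 3, for CCAAT 43 and 8, for GGTCC 22 and 3, and for AAACACA 9 and 0. The differences between the chromosomes were not tested.

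The anchors around the chromosome 13 histone genes coincided with tRNA genes, which RNA polymerase III transcribes. This feature was not used to choose the loops and was noticed in these data. Of the 21 anchors in the interval, 12 held an end of a tRNA gene (57.1%, exact 95% interval 34.0 to 78.2%), against 0.309% of all merged anchors. From H2bc13 to H4c8 it was 11 of 13 anchors, and 10 of the 12 had no protein-coding gene end. The anchor with H2bc13, H2ac13 and H3c10 also held n-TGgcc7 and n-TMcat7, tRNA genes for glycine and methionine by their symbols, and that of subcluster 2 held n-TVcac8, n-TIaat7 and n-TTagt1. The anchor at 23430001 to 23440000 held most, with 6. The other anchors with histone genes, at H1f5 and at H2bc1, held none.

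Every loop of the list with tRNA gene ends at both anchors was one of these. They were 7 of the 16 histone loops, against 0.141% of all loops, and 0 of the other 4966. The 7 include the 3 loops across the Vmn1r genes and both loops between subclusters 1 and 2. Of the other 9, 3 had tRNA gene ends at 1 anchor, among them the loop scored 6.08. The interval holds 104 of the 408 tRNA genes of the table (25.5%), and 15.3% of its 10 kb bins hold a tRNA gene end. Of the 104, 37 had an end at an anchor (35.6%, 26.4 to 45.6%), against 14% of all tRNA genes and 7.09% (20 of 282) outside both intervals. These 37 genes shared 12 merged anchors, so they are not independent and the interval is too narrow.

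Other places dense in tRNA genes had few of them at anchors. Outside the intervals, 4 windows of 1 Mb held at least 10 tRNA genes. The window with most, on chromosome 6 (48000001 to 49000000), had 0 of 48 at an anchor and no loop. Those on chromosome 1 (171000001 to 172000000) and chromosome 11 (69000001 to 70000000) had 0 of 26 and 0 of 18, with 2 and 3 loops. The window on X (136000001 to 137000000) had 1 of 13, with 2 loops. The chromosome 3 histone interval holds 22 tRNA genes, with 0 at an anchor, and the nearest of them lay 51.9 kb from its histone genes. In the first and last Mb of the chromosome 13 interval, 15 of 52 and 17 of 45 were at anchors, with 9 loops in each. The windows thus also differed in their number of loops, and the part this has in the counts was not tested. Both tRNA and histone genes include near-identical copies, and the part that read placement between copies has in these anchors was not tested.

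The genes at anchors were also counted by class. An end at an anchor was found for 5 of 17 H2A genes, 5 of 16 H2B genes, 2 of 12 H3 genes, 1 of 6 H1 genes and 1 of 12 H4 genes, H4c9. All 10 of the H2A and H2B genes at anchors were the members of 5 head-to-head pairs, while the other pairs had neither gene at an anchor. A link between pairing and anchors was not tested. With these counts the exact intervals overlap widely: 10.3 to 56.0% for H2A and 0.211 to 38.5% for H4.

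**Figure D4:**
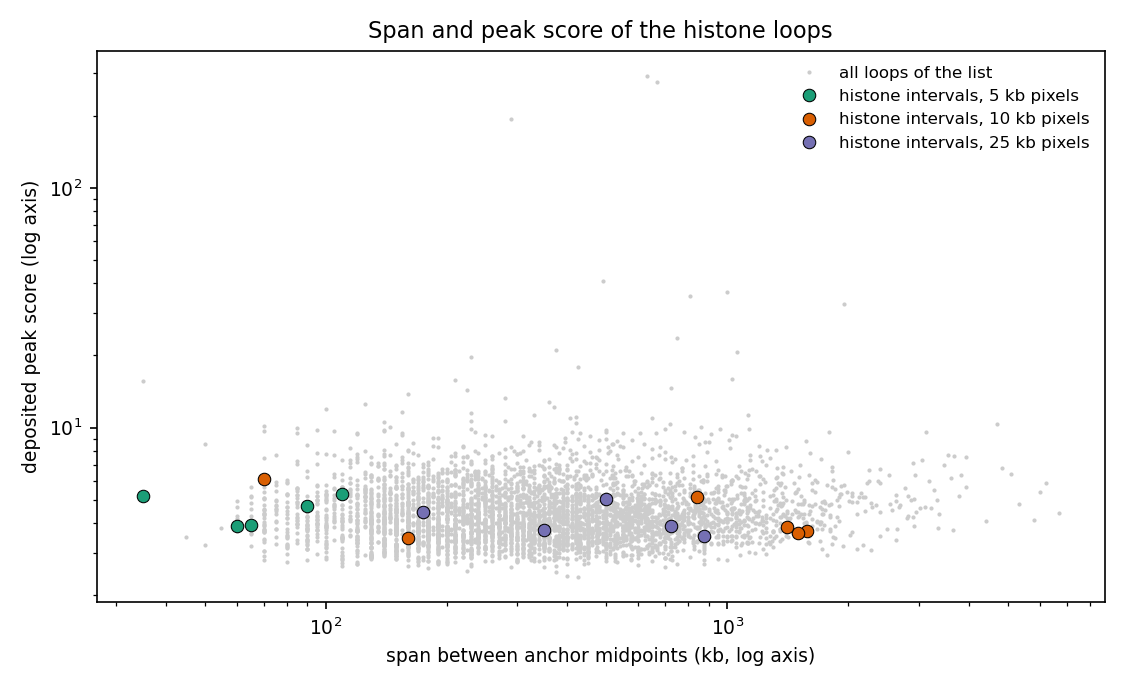
Each grey dot is 1 of the 4982 loops, at its span between anchor midpoints in kb and its deposited peak score, both on log axes; circles are the 16 histone loops, coloured by pixel size. The circles range from 35 to 1580 kb and from 3.45 to 6.08 in peak score.

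In score the histone loops lay within the range of the list. Their median peak score was 3.90 (range 3.45 to 6.08), against 4.16 over all loops, and 7 of 16 lay above the median of their pixel size. Their peak pixels lay above that median in 9 of 16. Their spans, from 35 to 1580 kb, had a median of 262.5 kb, against 325 kb in all. These pooled medians mix pixel sizes, whose shares differed: 10 kb pixels made up 37.5% of the histone loops and 61.2% of all loops. At 5, 10 and 25 kb pixels the median spans were 65, 1125 and 500 kb, against 190, 330 and 650 kb. They were thus longer than in the list at 10 kb pixels alone. Most anchors took part in 1 loop: 15 of 21, with 6 in 2 loops. The remaining 3 loops lay to the left of subcluster 1. Of these, 2 ran from inside Elmo1, a gene of cell migration, to ends of Aoah (725 kb, 3.90) and of the olfactory receptor gene Olfr1368 (840 kb, 5.13), and the third, of 65 kb, began at an anchor with 4 tRNA genes (3.91).

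**Figure D5:**
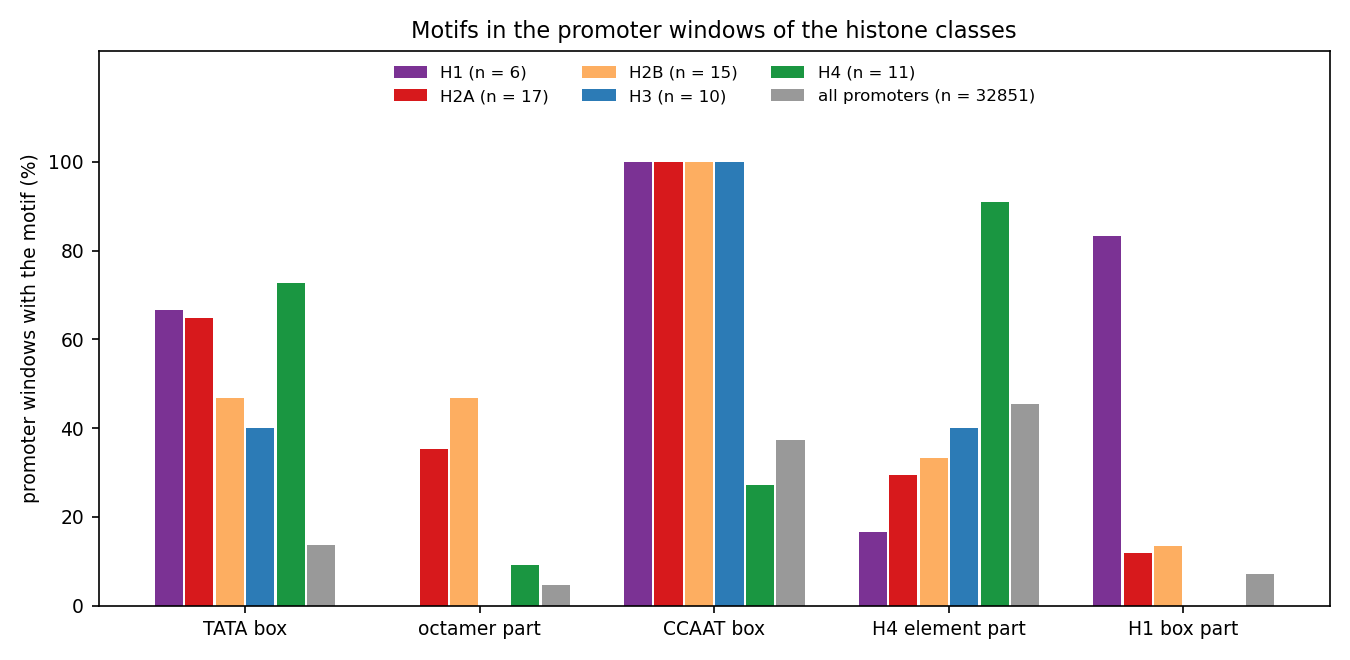
Bars give the share of promoter windows (250 bases before to 50 after the start site) with each motif on either strand, in percent, for the 5 histone classes and for all 32851 windows of the table. The H4 bars are high for the H4 element part and low for the CCAAT box, the reverse of the other classes.

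Promoter motifs differed between the histone classes. The letters were searched in 59 windows of 58 histone genes, 250 bases before to 50 after the start site, and do not show that a factor binds. CCAAT was in every window of H1 (6), H2A (17), H2B (15) and H3 (10) but in 3 of 11 of H4, against 37.4% of all windows. GGTCC was in 10 of 11 H4 windows, against 45.5% of all windows, and 8 of the 12 forward matches in H4 windows began 20 to 60 bases upstream. TTTGCAT was in 7 of 15 H2B windows and 6 of 17 H2A windows, against 4.63% in all. Every match in the H2B windows was forward and every match in the H2A windows was reverse. Windows of head-to-head partners overlap, so the same letters can count in both classes, for any motif. The TTTGCAT of H2ac12 and H2bc12 was the same site, and so were those of H2ac8 and H2bc8 and of H2ac1 and H2bc1. AAACACA, added after the other motifs had been searched, was in 5 of 6 H1 windows (7.18% in all), with forward matches at positions -122 to -112. TATAAA was in 34 of 59 (57.6%, against 13.6%), at any position and on either strand. Forward matches that began 20 to 60 bases upstream were 4 of 4 in H1 and 6 of 10 in H2A windows. In H2B, H3 and H4 windows they were 1 of 3, 2 of 5 and 1 of 8. Windows of genes at anchors held TATAAA in 10 of 14 cases and those of other histone genes in 24 of 45, and CCAAT in 13 of 14 and 38 of 45. The genes at anchors share 4 anchors, and the differences between these shares were not tested.

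Genes of proteins that act on histone genes or histones were at anchors at about the share of all protein-coding genes. Of the pathway symbols, 61 were in the table, and 5 had an end at an anchor (8.20%, against 9.04% of all protein-coding genes). In the list of the histone locus body and histone transcription it was 0 of 11: Npat lay 76.9 kb, Casp8ap2 15.5 kb and Hinfp, which encodes an activator of H4 genes, 149 kb from an anchor. In the list of histone mRNA processing and decay it was 2 of 23, and Slbp, which encodes the stem-loop binding protein, lay 50.1 kb away. Eri1, an exonuclease of histone mRNA decay, had 3 loops, of 230, 360 and 625 kb (peak scores 2.89, 3.07 and 4.17). They stood at percentiles 2.49, 6.89 and 60.9 of their pixel sizes. Snrpe, an Sm protein, had 1 of 230 kb (5.79, percentile 74.8). Of the histone chaperones it was 3 of 17. Asf1a, which hands H3 and H4 to assembly factors, had a loop of 4825 kb to Ranbp2 (6.80, percentile 96.0 of 25 kb pixels). Atrx, a chromatin remodeller that deposits variant H3 with a partner, had one of 600 kb (4.07, percentile 57.6). Nap1l1, which encodes a chaperone of H2A and H2B, had one of 180 kb to Osbpl8 and Bbs10 (3.03, percentile 5.74). Of the listed histone genes outside the clusters that were in the table, it was 0 of 10. This list was incomplete: H1f7, H1f8 and H1f10 were in the table under symbols it lacked and were not counted.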

How the data were processed

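Micro-C was done on 2 samples of 1 group, and 1 loop list was used for both. The submitters' processing notes name mm10 as build and Juicer 1.5.6 as a tool. Which program called loops, with which thresholds, whether samples were pooled and how reads from near-identical gene copies were placed is not given in the sources used here. No header comes with the deposited list: the deposited peak score and regional score and the deposited signal of the peak pixel were named from column order and values, and the normalization of the contact map is unknown. They served only to rank loops within the list.

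Anchors were made 1-based, and those sharing at least 1 base were merged. Genes came from the RefSeq table of GRCm38.p6 (chromosomes 1 to 19 and X). A gene was at an anchor where either end of its record lay inside. Percentiles are ranks within a pixel size. Intervals are exact Clopper-Pearson 95% intervals, and a count of 0 is given the limit of 3 counts. Both cover counting error only and treat genes or anchors as independent, which neighbours are not. Scripts (Python 3.11.15, pandas 2.3.3) were tested on simulated loops planted at known genes. No p-values were computed. The members, lists and motifs were chosen with earlier results of these data known. Named genes are the histone genes at anchors, the nearest and farthest, the ends of subclusters, genes opposite them, and pathway genes at anchors plus Npat, Slbp, Casp8ap2 and Hinfp. Those just outside an anchor, H4bc24 and the tRNA genes were added after their values were seen. Alternatives on pixel size, score, anchor width, merging and overlap were tried.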

Additional observations from a re-analysis of the deposited data

How the results depend on the processing

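No paired analysis was possible because 1 list stands for both samples, and for the same reason no sample could be left out. Of 29 alternative values, 16 were within 1.5 times the main count and 13 were not. The 16 loops became 7 when only those whose peak score exceeded the median at their pixel size were kept, and 5, 6 and 5 at 5, 10 and 25 kb pixels alone. The 14 histone genes at anchors became 8 with anchors narrowed to the central 5 kb, and 2, 9 and 7 at 5, 10 and 25 kb pixels alone, where 1.86, 5.59 and 2.2% of all protein-coding genes had an end at one. They were 18 with anchors widened by 5 kb (16.2% of all genes) and 14 with start sites in place of gene ends (5.2%). The count on chromosome 3 was 0 in every setting run for genes. Loops joining subclusters rose from 0 to 1 within 25 or 50 kb and to 5 within 100 kb. Anchors with a tRNA gene end fell from 12 to 5 of 10, and loops with such ends at both anchors from 7 to 2, under that same limit on peak score, a setting that keeps fewer loops. With anchors widened by 5 kb the latter were 8, all in the chromosome 13 interval. The alternatives on start sites, tRNA genes and flanks of subclusters were chosen after seeing the data.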

Other observations

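The other 81 protein-coding genes of the intervals had 3 at anchors, against 9.04% of all protein-coding genes. Olfactory receptor genes, on the left of subcluster 1, had 1 of 12 (Olfr1368), the Slc17a transporter genes between H1f1 and H2bc1 had 1 of 4 (Slc17a2), and the Trim genes had 1 of 2 (Trim38). The zinc finger genes (Zfp, Zkscan or Zscan) had 0 of 7 and the butyrophilin genes (Btn) 0 of 2.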
